A study of Mus musculus with 8 samples.

Results

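The baseline transcriptome of the wild type mouse liver is described here from 4 of the 8 arrays of a study of liver RNA in male mice. The 4 arrays were taken by their labels, which name wild type liver. The design text counts 4 wild type mice for these 4 arrays, so each array is read here as 1 mouse, on the C57BL/6 background and killed at 13 weeks of age. The mice carried no engineered allele according to the labels, were kept under 12 hours of light and 12 hours of dark, and ate the Pico Lab 5053 rodent diet freely. The other 4 arrays of the study came from Bgn knockout mice, and no comparison with them was made. The hour of collection and the state of feeding at collection are not given in the sources used here.

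Most of the liver's mass is hepatocytes, which secrete the carrier, lipoprotein, coagulation and complement proteins of blood plasma, make cholesterol and bile acids, store glycogen, turn the nitrogen of amino acids into urea, and clear foreign compounds with cytochrome P450 and conjugating enzymes. Sinusoidal endothelial cells, Kupffer cells, stellate cells and cholangiocytes make up most of the rest. Several hepatocyte programmes are known to follow meals and fasting: SREBP transcription factors drive the synthesis of cholesterol and fatty acids, and the receptor PPAR-alpha drives fatty acid oxidation and ketone production.

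Each array gave an average intensity, in arbitrary units without background subtraction, for 25697 probes. The median intensity over all probes was 141, 145, 151 and 157 units on replicates 1, 2, 3 and 4, and 11451, 11434, 11423 and 11910 probes were detected, that is, had a detection p-value under 0.05. Below, 4 values in a row are always those of replicates 1, 2, 3 and 4, and a mean is followed by its SD over the 4 arrays (n = 4). The replicate numbers are those of the labels, which give no chip or position, so whether their order carries a meaning was not tested. Pearson correlations of normalized log2 intensity over the probes detected on all 4 arrays ran from 0.971 (replicates 1 and 4) to 0.990 (replicates 1 and 2), over probes that share the same arrays. The number of arrays limits the precision, and with 1 array a mouse the spread between mice and the error of the measurement cannot be told apart. An intensity depends on how well a probe binds as well as on the amount of transcript, so a rank by intensity is a rank of probe signal.

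Of the 25697 probes, 10078 were detected on all 4 arrays (39.2%), and 12255 were detected on none (47.7%). A further 1630 probes were detected on 1 array, 926 on 2 and 808 on 3. By gene, 7222 of 16593 named genes had at least 1 probe detected on all 4 arrays (43.5%), and for 7209 genes it was the brightest probe that was detected on all 4 (43.4%). From here on, a gene is given by its brightest probe and called detected where that probe was detected on all 4 arrays. Genes just inside the threshold were 1700029I15Rik and Adam32, whose highest detection p-value over the 4 arrays was 0.0489, and just outside it were Abhd6 and Abi1 at 0.0501. Few probes had their highest p-value near the threshold. It lay between 0.04 and 0.05 for 203 probes and between 0.05 and 0.06 for 147. A detection p-value of 0 on all 4 arrays was found for 7519 probes (29.3%).

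The signal was steeply graded. The brightest 320 probes, some without a gene name, averaged over 10000 units, and 255 named genes had such a probe. A further 2491 probes averaged between 1000 and 10000, and the detected probes had a median of 431 units. At the dim end, 1623 detected probes averaged under 200 units, close to the lowest mean of any detected probe, 158 units. Among the 500 brightest genes 500 were detected, among ranks 7001 to 7500 it was 272 (54.4%), and among ranks 8001 to 8500 it was 0.

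**Figure D1:**
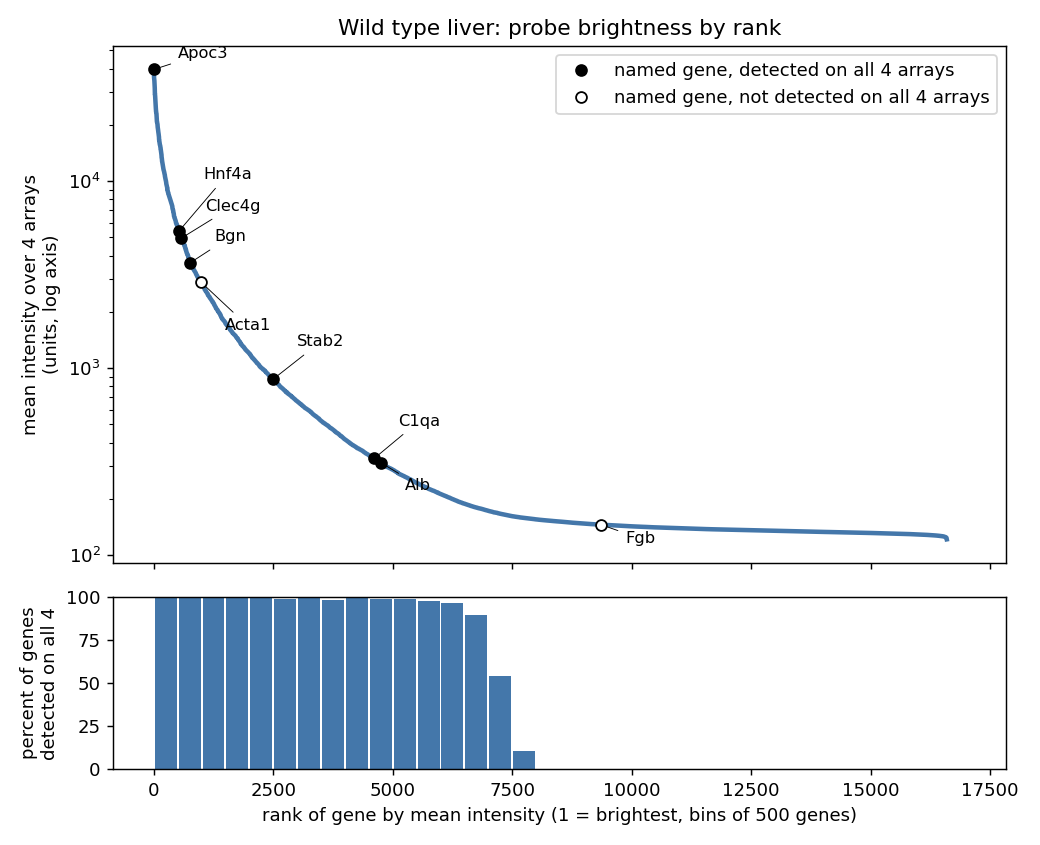
Mean intensity of 16593 genes over the 4 wild type arrays (upper plot, log axis) against rank by mean intensity, and the percent of genes detected on all 4 arrays in bins of 500 ranks (lower plot). Filled circles are named genes detected on all 4 arrays and open circles are those that were not; the signal falls from 39551 units for Apoc3 to a flat floor, where detection ends. The bright but open circle of Acta1 is a gene detected on replicate 4 alone.

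Most measured hepatocyte markers were detected. Of 16 measured hepatocyte markers 14 were detected, against 43.4% of all genes, and 8 of them were among the 100 brightest genes. The apolipoproteins Apoa2 and Apoa1, the carrier of thyroid hormone and retinol Ttr, and the fibrinogen chain Fga were the brightest, at 35072 ± 1031, 33885 ± 1182, 32335 ± 1420.4 and 32299 ± 2031 units. Hnf4a, a transcription factor that maintains hepatocyte identity, read 4422, 4925, 5599 and 6672 units with an SD of 0.14 on the normalized log2 scale. The fibrinogen chain Fgb and the tyrosine aminotransferase Tat were not above background on any array.

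Albumin, the main protein of blood plasma, was a dim probe here. Alb read 215, 321, 290.4 and 417 units, a mean of 311 ± 83.7 and rank 4764 of 16593 genes. The platform table names 1 probe for Alb, and whether that probe binds its transcript well was not tested. Other genes known for strong expression in liver or in all cells had probes that were not above background on any array: Fabp1, the fatty acid binding protein of liver, at 136 ± 11.4 units; Cpt1a, which admits fatty acids to mitochondria, at 133 ± 8.38; the elongation factor Eef1a1, at 136 ± 11.9; and the ferritin light chain Ftl1, at 136 ± 10.2. A reading at background does not show that the transcript was absent.

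Most measured markers of cells in the sinusoids were detected. Of 16 sinusoidal endothelial markers 14 were detected, against 43.4% of all genes. They were led by the lectin Clec4g, which read 6208, 4710.1, 3949.7 and 4976 units. The secreted factor Egfl7 averaged 1581 ± 354 units, the scavenger receptor Stab2 873 ± 188 and the TGF-beta co-receptor Eng 759.8 ± 101. Kdr, the main receptor for vascular endothelial growth factor, was not detected on any array. Of 14 Kupffer cell and macrophage markers 11 were detected. The complement receptor Vsig4 averaged 1215 ± 164 units and the lectin Clec4f, a marker of resident Kupffer cells in mice, 1059.8 ± 325. Clec4f read 836, 1053, 829 and 1521 units, and 11 of the 14 measured markers were brightest on replicate 4, on the deposited scale, where 59.4% of all measured genes were brightest on that array too. In whole tissue, fewer cells of a type and less RNA per cell cannot be told apart.

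Stellate cells and fibroblasts were seen through their matrix genes. Of 15 markers 11 were detected, against 43.4% of all genes. Among them were the small proteoglycan Dcn at 6545 ± 1202 units and the matrix glycoprotein Ecm1 at 5718 ± 1309.7. Bgn, the biglycan gene, averaged 3660.1 ± 918 units and the secreted protein Reln 3241 ± 722. Bgn itself read 2901, 3112, 3684 and 4944 units, highest on replicate 4. The fibrillar collagen genes Col1a2 and Col3a1 were not detected on any array, and Col1a1 was detected on 2. Of 9 cholangiocyte markers 3 were detected, Anxa4, Cldn7 and Sox9, none of them specific to bile ducts, while the duct keratin Krt19 and the chloride channel Cftr were not detected on any array.

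Blood cells gave a narrow signal. The alpha globin gene Hba-a1, whose probe may also read its near-identical copy, averaged 22317 ± 2324 units, and Alas2, the haem synthesis enzyme of red cells, 4001 ± 406. The beta globin probe Hbb-b2 was not detected on any array. Of 12 neutrophil markers 2 were detected, against 43.4% of all genes. These were S100a8 at 225 ± 39.1 units and Mmp9 at 160.2 ± 11.3, both near background. Of 11 T and NK cell markers 1 was detected, the T cell receptor component Cd3e at 182 ± 26 units. Of 8 B and plasma cell markers 2 were detected: Cd79b at 173 ± 13.1 units, and Xbp1, a factor of secretory cells that hepatocytes also use, at 8327 ± 1294.

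The Y-linked genes Eif2s3y, Kdm5d and Uty were detected on all 4 arrays, and Xist, which coats the silent X chromosome of females, on none; the labels give all mice as male. Eif2s3y, a translation initiation factor, read 533, 702, 569 and 921 units.

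Markers of other organs were mostly silent. None of 11 testis, 9 heart or 8 lung markers was detected on all 4 arrays, and of 16 brain markers 1 was, Syt1 at 214 ± 11.7 units. Of 14 exocrine pancreas markers 2 were detected, the brightest at 1226 units. Of 9 skin and hair markers 2 were, the brightest at 528 units, and of 7 retina markers 1 was, at 366. Some of the exceptions were genes that liver is known to express as well. The intestinal list was represented by Apoa4, an apolipoprotein that read 2026, 1571, 2756 and 7965 units, highest on replicate 4. Tff3, a mucosal trefoil peptide of the same list, was detected on 2 arrays and read 173, 145, 145 and 1565 units, also high on replicate 4. The kidney list was represented by the water channel Aqp1 at 3147 ± 382 units, the salt transporter Slc12a3 at 681 ± 160.3 and Podxl at 221 ± 32.8. The adipose list was represented by the carbonic anhydrase Car3 and the lipoprotein lipase Lpl, while the fat cell markers Fabp4, Plin1 and Retn were not detected on any array. Other fat cell markers were detected in part: the droplet protein Cidec on 3 arrays at 158, 138, 169 and 223 units, the hormone Adipoq on 2 at 231, 137, 142 and 164, and Lep, the leptin gene, on 1 at 162, 146, 139 and 144. Of 1058 olfactory receptor genes 9 were detected (0.851%), the brightest at 347 units, and of 140 vomeronasal receptors, 35 taste receptors, 41 beta-defensins and 30 hair keratin-associated proteins 0 were detected. Of all genes, 43.4% were detected.

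**Figure D2:**
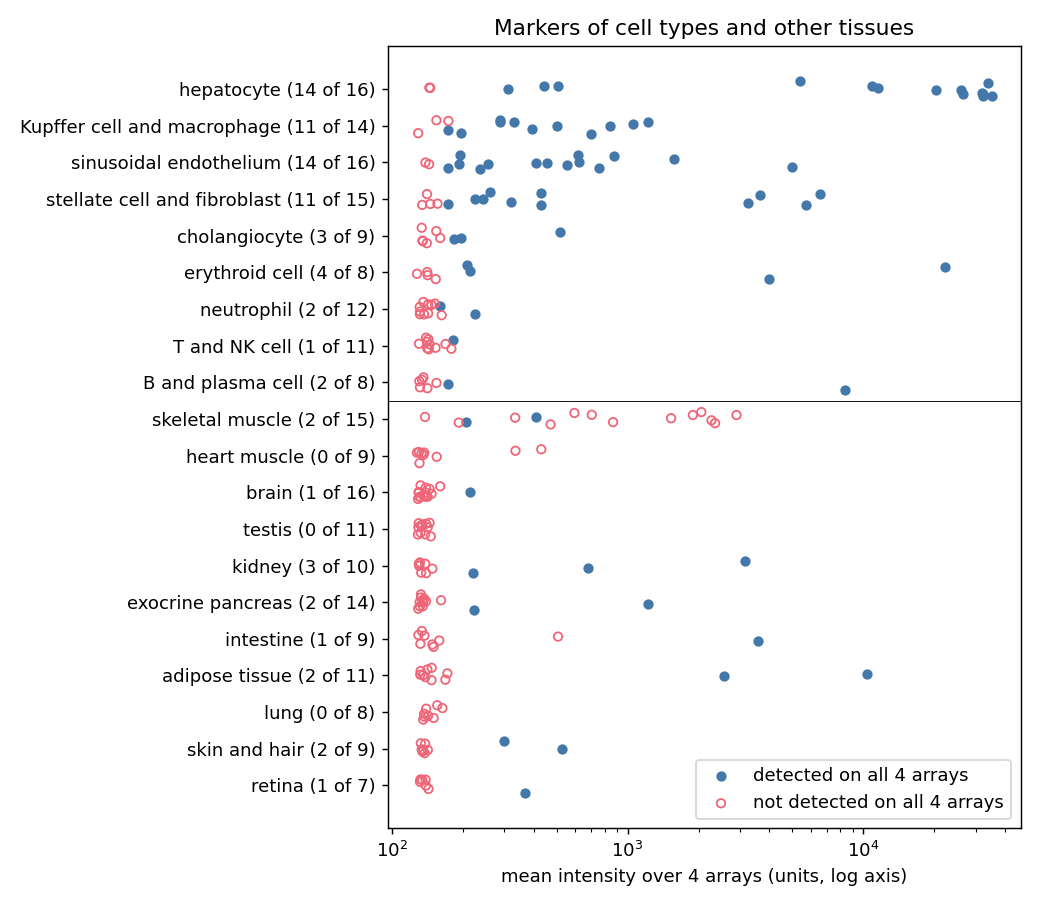
Mean intensity over the 4 wild type arrays (log axis) of each measured marker gene of 20 cell types and organs. Each point is a gene, filled where detected on all 4 arrays and open where not, and the labels give how many of how many were detected; liver cell types are above the line and other organs below it. Skeletal muscle markers lie far to the right yet are open, since 12 of 15 were detected on some arrays but not on all 4.

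Skeletal muscle genes were high on 1 array. The muscle actin Acta1 read 123, 134, 146 and 11188 units, the myosin light chain Myl1 read 142, 139.7, 140.2 and 8978, and the troponin Tnnc2 read 126, 134, 143 and 7822. Replicate 4 thus stood far above background for each, and the other arrays did not. All 15 measured muscle markers were brightest on replicate 4, against 59.4% of all measured genes, and there they summed to 61032 units against 2128, 2188 and 2315 on replicates 1, 2 and 3. Of the 15, 2 were detected on all 4 arrays, the enolase Eno3 and the actinin Actn3, 12 on 1 to 3 arrays and the myosin Myh4 on 0. Myl2 and Myl3, myosin light chains of heart and slow muscle, did likewise at 127, 131, 135 and 1329 and 129, 125, 142 and 943 units, whereas the heart genes Myh6 and Nppa were not detected on any array. Replicate 4 also had the most probes detected on that array alone, 638 against 306 to 354 on the others. How muscle transcripts came to be in that sample was not tested.

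The brightest probes belonged to secreted proteins. Apoc3, an apolipoprotein that slows the clearance of triglyceride-rich lipoproteins, ranked first and read 41327, 38475, 41107 and 37293 units. Serpina1b, an alpha-1-antitrypsin gene that inhibits neutrophil elastase, averaged 39056 ± 1376 units, and Trf, which carries iron, 37562 ± 1081. Serpina1c, Serpina1d and Serpina1e were also among the 8 brightest genes, but these copies are near-identical and their probes may share signal. The haem scavenger Hpx averaged 35595 ± 1726 units, the kinin precursor Kng1 35341 ± 825, the calcium-binding carrier Ahsg 34459.9 ± 1566, the inhibitor precursor Ambp 32897 ± 1239.8 and the haemoglobin scavenger Hp 29877 ± 2953. Inside the cell, the acyl-CoA binding protein Dbi averaged 36067 ± 3531 units, the glutathione transferase Gstp1 35053 ± 1859, the glutathione peroxidase Gpx1 34825 ± 2138, the ferritin heavy chain Fth1 31856 ± 1283 and the methyl group regulator Gnmt 31323 ± 1625.

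Of the 100 brightest genes, 19 were in the lists of plasma carriers, apolipoproteins, coagulation, complement and acute phase proteins. The lists of cytochromes P450 and conjugation held 11, amino acid breakdown 6, and the major urinary proteins 3, while the ribosomal protein family held 8, the respiratory chain families 7 and the serpin family 5, with some genes in more than 1 group. A total of 42 were in none of these groups. Nearly all measured genes of the secreted protein lists were detected, against 43.4% of all genes. The counts were 14 of 14 plasma carriers, 17 of 17 apolipoproteins and lipoprotein enzymes, 19 of 20 coagulation genes and 19 of 20 complement genes. These lists named 15, 23, 21 and 24 genes, so not all of each list was measured. The measured members not detected were Fgb and the complement protease C1ra.

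Most secreted genes varied little between mice, as bright probes did in general. The spread is given as the SD over the 4 arrays of the normalized log2 intensity. Its median was 0.22 over all detected genes and 0.15 over the brightest of 10 equal bins of detected probes. The median was 0.12 for the 19 coagulation genes, 0.12 for the 19 complement genes and 0.12 for the 17 apolipoprotein genes, while it was 0.23 for the 21 acute phase genes. Trf had an SD of 0.0097 and read 37987, 37737, 38509 and 36014 units. The normalization sets each value by its rank on the array, so this SD reflects a steady rank. The complement regulator Cfi had an SD of 0.021, the contact factor F12 0.04 and the cofactor F5, a far dimmer probe at 975 ± 89.7 units, 0.072. The exceptions among plasma carriers and apolipoproteins were the thyroxine carrier Serpina7, with an SD of 1.19 and readings of 756, 738, 262 and 411 units, high on replicates 1 and 2, and Apoa4, whose SD of 0.96 came with its high reading on replicate 4.

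Promoter sequence was set beside brightness for the 10986 genes for which the RefSeq table of assembly GRCm38.p6 gave exactly 1 window, from 250 bases before to 50 bases after the gene's start. The 100 brightest genes, 67 of them with a window, had a median of 9 CpG dinucleotides, against 21 for the 4623 other detected genes, 14 for the 1357 genes detected on 1 to 3 arrays, and 6 for the 4939 detected on none. A TATAAA box on the gene's strand that starts 40 to 20 bases before the start was found in 7 of the 67 brightest (10.4%). It was found in 1.49% of the other detected genes, 3.54% of those on 1 to 3 arrays, 4.27% of those on none and 3.05% of all windows. Anywhere in the window, on either strand, TATAAA was found in 20.9% of the brightest, 7.77% of the other detected genes and 19.6% of those on none. The letters GTTAAT or their reverse complement ATTAAC, the core of one arm of the site of HNF1, a transcription factor of liver, kidney and gut, were found in 11 of 34 windows of the plasma carrier, coagulation and complement lists together (32.4%), in 12 of 43 once the apolipoprotein list was added (27.9%), in 16.4% of the brightest, in 4.61% of all detected genes and in 6.33% of all windows. The full 13-base site of HNF1 was found in 0 of the 10986 windows. The 6 letters were also found in 8.38% of the genes detected on none, a larger share than in detected genes. The median CpG count was 3, 5 and 3 in the plasma carrier, coagulation and complement windows, against 15 in all windows. Whether base composition accounts for the share of matches was not tested. Each match is a description and not a binding site. The windows of the fibrinogen chain Fga (chr3:83025903-83026202, plus strand), prothrombin F2 (chr2:91636408-91636707, minus strand) and the complement component C8b (chr4:104766067-104766366, plus strand) are shown because they are the brightest such secreted genes, 5′ to 3′ on the gene's strand with the match in capitals.
Fga: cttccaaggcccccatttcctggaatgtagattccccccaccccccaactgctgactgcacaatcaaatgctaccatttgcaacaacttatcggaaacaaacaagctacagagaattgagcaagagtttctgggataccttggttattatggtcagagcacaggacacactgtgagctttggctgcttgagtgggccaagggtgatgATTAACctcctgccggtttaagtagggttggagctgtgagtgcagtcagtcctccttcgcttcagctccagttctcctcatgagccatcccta
F2: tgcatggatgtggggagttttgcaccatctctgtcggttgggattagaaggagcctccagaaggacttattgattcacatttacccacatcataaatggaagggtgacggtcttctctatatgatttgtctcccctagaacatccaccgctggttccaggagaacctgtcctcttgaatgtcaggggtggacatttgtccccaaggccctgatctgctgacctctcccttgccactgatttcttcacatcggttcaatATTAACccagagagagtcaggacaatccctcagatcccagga
C8b: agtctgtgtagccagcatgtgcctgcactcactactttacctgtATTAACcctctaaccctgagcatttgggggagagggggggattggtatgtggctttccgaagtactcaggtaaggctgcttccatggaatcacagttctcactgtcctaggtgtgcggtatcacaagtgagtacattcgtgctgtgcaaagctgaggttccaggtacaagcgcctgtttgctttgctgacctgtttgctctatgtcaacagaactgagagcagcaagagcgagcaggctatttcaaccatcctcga
Their signals were 32956, 32724, 34121 and 29394 units for Fga, 8937, 10391, 11132 and 11030.5 for F2 and 7914, 9221, 8782 and 8186 for C8b, so none of the 3 differed much between mice.

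Metabolic genes of the hepatocyte were also bright. Of 35 drug-metabolising cytochromes P450, 22 were detected, and the share of all genes, 43.4%, stands beside this and the next counts. Cyp2e1, which oxidises ethanol and small solvents, averaged 31761 ± 1552 units, Cyp3a11 26039.6 ± 2161, Cyp2d9 23915 ± 2759 and Cyp2f2 21328 ± 2809. Cyp1a1, known to need activation by aryl hydrocarbons, was not detected on any array. Of 37 conjugation genes 32 were detected, led by Gstp1, the microsomal transferase Mgst1 at 29252 ± 2097 units, the glucuronosyltransferase Ugt2b36 at 23393 ± 618 and Gsta3 at 22883 ± 1665. Of 29 genes of the urea cycle and amino acid breakdown 28 were detected, with Gnmt, the methionine adenosyltransferase Mat1a at 29249 ± 1448 units, and the urea cycle enzymes Ass1 at 26465 ± 3033 and Cps1 at 20363 ± 2253 in front. Bile acid synthesis was led by Hsd3b7 at 26044 ± 976 units, Scp2 at 22835 ± 2368 and Cyp8b1, which sets the share of cholic acid, at 18916 ± 1157. The rate-limiting enzyme Cyp7a1 read 2657, 2299, 1179 and 1582 units, higher on replicates 1 and 2 than on 3 and 4.

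Genes of the general cell machinery were mostly detected, against 43.4% of all genes, and most of these groups varied less than all genes. The detected counts were 55 of 72 cytosolic ribosomal proteins, 70 of 76 mitochondrial ribosomal proteins, 32 of 33 complex I subunits, 15 of 16 ATP synthase subunits and 33 of 36 proteasome subunits. The median SD of their detected members was 0.11, 0.16, 0.14, 0.10 and 0.13. Bright probes varied less in general, with a median SD of 0.15 in the brightest of 10 equal bins of detected probes. Of 18 cytochrome c oxidase genes 12 were detected, with a median SD of 0.098, and of 47 translation initiation factors 39, with a median SD of 0.21, close to that of all genes. By contrast, 3 of 38 Hox genes and 4 of 20 cell division genes were detected, the latter with Tyms at 297 ± 14.4 units as the brightest. The fetal liver gene Afp was not above background on any array.

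Among regulators, 24 of 29 liver transcription factors and nuclear receptors were detected, and 0 of them had an SD over 0.5. Of all genes 43.4% were detected, and 7.03% of those had an SD over 0.5, so 0 of 24 lies near that share. Foxa3 averaged 7577 ± 2119 units, Cebpb 5951 ± 781, Atf5 5901 ± 2249.8 and Nr1h4, the bile acid receptor, 5600.2 ± 1209. Of 24 circadian clock genes 18 were detected, 3 with an SD over 0.5. Clock itself had an SD of 0.054. The clock output factor Dbp, whose level is known to swing strongly over the day, read 1809, 2234, 2313 and 1479 units, and the repressor Nr1d1 read 971, 1144, 945 and 945. For both, the SD of the normalized log2 intensity was under 0.5. The most variable members were Bhlhe40, a repressor of the clock that read 1173, 1386, 773 and 828 units, and Ciart, another repressor, that read 269, 185, 251 and 216.

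Over the 10078 detected probes the median SD was 0.23 and the 10th and 90th percentiles were 0.096 and 0.46. An SD over 0.5 was reached by 764 probes (7.58%) and by 507 of the 7209 detected genes (7.03%), and the ratio of the highest to the lowest normalized value passed 2-fold for 1079 probes (10.7%). In 10 equal bins by brightness the median SD was 0.26 to 0.29 in the dimmest 3 and 0.15 in the brightest. The number of probes with an SD over 0.5 was 563 without replicate 4 and 279 without background correction. Among the 764 probes, the array farthest from the others was replicate 4 for 373, replicate 3 for 180, replicate 1 for 124 and replicate 2 for 87.

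The genes with the smallest SD among the brightest 25% of detected genes were Serpina1c, Trf, the hydroxylase Jmjd6, the actin regulator Brk1, the aldehyde dehydrogenase Aldh5a1, the adenosine kinase Adk and the ribosomal genes Mrps33 and Rpl31. Before normalization their intensities still differed with the arrays' scale, as for Jmjd6, which read 1266, 1357, 1479 and 1649.6 units and had an SD of 0.011 after it. Rpl31 had an SD of 0.017.

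**Figure D3:**
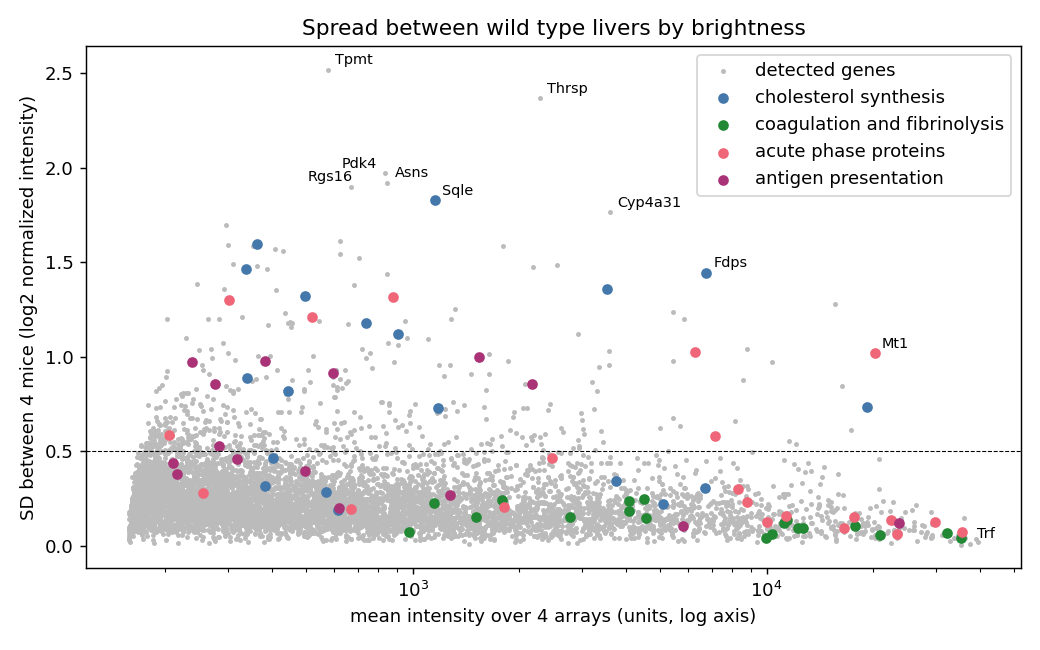
SD over the 4 mice of the normalized log2 intensity of each of 7209 detected genes against its mean intensity (log axis). Grey points are all detected genes, coloured points are members of 4 lists, and the dashed line marks an SD of 0.5. Coagulation genes in green lie low (median SD 0.12) and cholesterol synthesis genes in blue lie high (median SD 0.82).

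Cholesterol synthesis was the most variable metabolic list. Of its 20 measured genes 19 were detected, the median SD was 0.82 against 0.22 for all genes, and 12 of the 19 had an SD over 0.5, against 7.03% of all detected genes. Sqle, which commits squalene to sterols, read 1919, 1953, 351 and 397 units. Fdps, which makes farnesyl diphosphate, read 11025, 10834, 1805 and 3286, and Hmgcs1, which makes the substrate of the pathway's rate-limiting step, read 25419, 26632, 10234 and 14404. For each, replicates 1 and 2 were close together and stood above replicates 3 and 4. Nsdhl read 527, 524, 202 and 197 units, Mvd 466, 473, 182 and 226 and Msmo1 5647, 5659.8, 1215 and 1673, all enzymes of the same route and all with the same split. Of the 19 genes, 17 were highest on replicate 1 or 2, against 44.7% of all detected genes, and 18 were lowest on replicate 3 or 4, against 55.2%. Taken as the median over the 19 genes, the deviation from the mean of the 4 arrays was 0.61, 0.78, -0.86 and -0.55 on the log2 scale. Not all members did so. The sterol sensor Scap had an SD of 0.19, the isomerase Ebp had 0.22, and Insig2, which retains the SREBP complex, had 0.31 and was lowest on replicate 2 (6183, 4885, 8694 and 7056 units).

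The cholesterol genes also shared promoter letters. Of the 20, 13 had a window, and all 13 held CCAAT or its reverse complement ATTGG, the box bound by NF-Y, against 39.4% of all windows. All 13 also held GGGCGG or its reverse complement CCGCCC, the box bound by Sp1, against 49.7%. Both together were found in 18.9% of all windows and 25.4% of the windows of detected genes. The 2 motifs overlapped by 2 bases in 45 windows, and overlaps of 1 base were not counted. These windows had a median of 27 CpG dinucleotides. The sterol regulatory element TCACNCCAC, a form of the SREBP site, was found in 1 of the 13 (7.69%) and in 1.18% of all. The 3 most variable members with a window are shown, 5′ to 3′ on the gene's strand, with both motifs in capitals: Nsdhl (chrX:72918271-72918570, plus strand), Mvd (chr8:122443373-122443672, minus strand) and Msmo1 (chr8:64733529-64733828, minus strand).
Nsdhl: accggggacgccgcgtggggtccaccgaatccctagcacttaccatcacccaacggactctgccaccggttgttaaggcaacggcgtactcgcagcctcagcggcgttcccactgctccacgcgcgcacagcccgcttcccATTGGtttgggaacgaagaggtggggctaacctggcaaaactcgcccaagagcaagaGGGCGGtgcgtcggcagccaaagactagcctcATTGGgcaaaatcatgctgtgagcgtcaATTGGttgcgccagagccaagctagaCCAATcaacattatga
Mvd: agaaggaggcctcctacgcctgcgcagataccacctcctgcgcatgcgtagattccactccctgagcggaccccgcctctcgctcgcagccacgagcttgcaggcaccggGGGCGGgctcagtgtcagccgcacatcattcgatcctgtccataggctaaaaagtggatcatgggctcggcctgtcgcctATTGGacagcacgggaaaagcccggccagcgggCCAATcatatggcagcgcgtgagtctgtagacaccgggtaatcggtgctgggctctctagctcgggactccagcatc
Msmo1: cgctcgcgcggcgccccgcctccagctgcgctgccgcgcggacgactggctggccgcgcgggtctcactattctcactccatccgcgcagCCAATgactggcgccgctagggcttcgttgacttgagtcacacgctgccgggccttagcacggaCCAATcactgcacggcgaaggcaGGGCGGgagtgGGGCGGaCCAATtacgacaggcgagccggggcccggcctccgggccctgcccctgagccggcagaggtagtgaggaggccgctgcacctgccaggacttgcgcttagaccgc
In these windows, Nsdhl held 4 CCAAT boxes and 1 GC box, Mvd 2 and 1, and Msmo1 3 and 2. A match is a description, and no factor's binding was measured.

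Fatty acid and triglyceride synthesis leaned the same way. Of 24 genes 21 were detected, and 9 had an SD over 0.5, against 7.03% of all detected genes. Thrsp, a regulator of fat synthesis known to follow carbohydrate feeding, read 4199.9, 3914, 282 and 752 units and had an SD of 2.37. Elovl6, which lengthens fatty acids, read 1422, 1111, 301 and 549.5, and Srebf1, which encodes the SREBP factor of fatty acid synthesis, read 566, 643, 243 and 287. For all 3, replicates 1 and 2 were above 3 and 4. The citrate-cleaving enzyme Acly, also on this list, read 12036, 11559, 3747 and 7050.2 units. Other members differed less, such as Dgat2, which makes triglyceride, with an SD of 0.11. The list's median deviation was 0.57, 0.11, -0.34 and -0.22. The probe of Fasn, the fatty acid synthase, was detected on 3 of 4 arrays at 158 ± 15.5 units and gives little information.

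Fatty acid oxidation went the opposite way in part. Of 28 genes of oxidation and ketone production 25 were detected, 20 of the 25 were lowest on replicate 1 or 2, against 44.8% of all detected genes, and 21 were highest on replicate 3 or 4, against 55.3%. The median deviation was small, -0.16, -0.19, 0.21 and 0.11. The difference was larger in a few genes known as PPAR-alpha targets. The fatty acid hydroxylase Cyp4a14 read 5869.9, 4721, 26097 and 25676 units and the acyl-CoA thioesterase Acot1 3631, 3585, 14211 and 13839. Replicates 3 and 4 stood far above 1 and 2 for both. Cyp4a31, of the same hydroxylase family and open to shared signal, read 904, 651, 7900.5 and 4985. Fgf21, the liver's fasting hormone, was detected on 3 of 4 arrays and read 155, 148, 490.2 and 913 units. The core enzymes were steadier: Acaa1b had an SD of 0.062, Etfa 0.12 and Acadm 0.20. Pdk4, which spares glucose in fasting, was high on replicate 4 alone, at 223, 244, 294 and 2573 units. Pdk4 is also strongly expressed in muscle, and the muscle markers were high on the same array. Its SD was 1.97 over 4 arrays and 0.21 without replicate 4.

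Several acute phase genes were split in a like manner. Of 22 acute phase genes 21 were detected, and 7 had an SD over 0.5, against 7.03% of all detected genes. Of the 21, 17 were highest on replicate 3 or 4, against 55.3% of all detected genes. Mt1, a metal-binding protein that rises with zinc, glucocorticoids and inflammation, read 11049, 7412, 33348 and 29041 units, and its relative Mt2 206, 159, 511 and 332. Serum amyloid Saa3 read 314, 354, 1036 and 1814 units, and Lcn2, which binds bacterial iron carriers, read 332, 223, 1045 and 474. Both were lower on replicates 1 and 2 than on 3 and 4. The abundant members were level, as with Hpx at an SD of 0.073, Hp at 0.13 and Itih4 at 0.06, and the list's median deviation was -0.13, -0.14, 0.17 and 0.07. The list of heat shock and the unfolded protein response did not follow this split: of 22 genes 19 were detected, 11 of them highest on replicate 3 or 4, and the median deviation was -0.02, -0.01, 0.10 and -0.07. Asns, which makes asparagine and marks amino acid shortage, read 212, 234, 1019.7 and 1924 units.

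Antigen presentation genes showed the same grouping of arrays. Of 16 genes 15 were detected, and 7 had an SD over 0.5, against 7.03% of all detected genes. The median deviation was -0.39, -0.40, 0.36 and 0.26. The class II chaperone Cd74 read 988, 1139, 2734 and 3811 units, and the class II chains H2-Ab1, H2-Aa and H2-Eb1 read 753, 616, 2113 and 2662, then 224, 219.9, 457 and 631, then 339.5, 302, 823 and 918. For each of the 4 class II genes, the values on replicates 3 and 4 were above those on replicates 1 and 2. Class I was flatter, with B2m at an SD of 0.12 and H2-T23 at 0.10, although class I probes may share signal. In the interferon list, 23 of 28 genes were detected and 4 had an SD over 0.5, against 7.03% of all detected genes. As a whole it did not follow this grouping, with a median deviation of 0.03, -0.17, 0.01 and 0.25. Some of its most variable members did. The chemokine Cxcl9 read 524, 478, 1362 and 2754 units, and the GTPases Igtp and Gbp2 687, 733, 2172 and 2954 and 281, 276, 515 and 1018. These are known targets of interferon gamma. Of other members, Ifit3 had an SD of 0.093 and Isg15 of 0.33. T and NK markers were dim, and those of the Cd3 complex read somewhat higher on replicates 3 and 4. Cd3e, detected on all 4 arrays, read 165, 158, 193 and 214 units, Cd3d and Cd3g, each detected on 2, read 139.8, 147, 164 and 264 and 139.9, 141, 181 and 214, and Cd8a and Gzma were detected on none. On the deposited scale 10 of the 11 markers were brightest on replicate 4, against 59.4% of all measured genes. There the 11 summed to 1519.7, 1540.5, 1702 and 1906 units. After normalization the order was mixed. Ncr1 and Il7r were highest on replicate 1, Cd4, Gzma and Klrb1c on replicate 2 and Cd8a and Cd2 on replicate 3. Nkg7, Cd3d, Cd3e and Cd3g were highest on replicate 4. The part of these cells in the class II and interferon values was not tested.

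**Figure D4:**
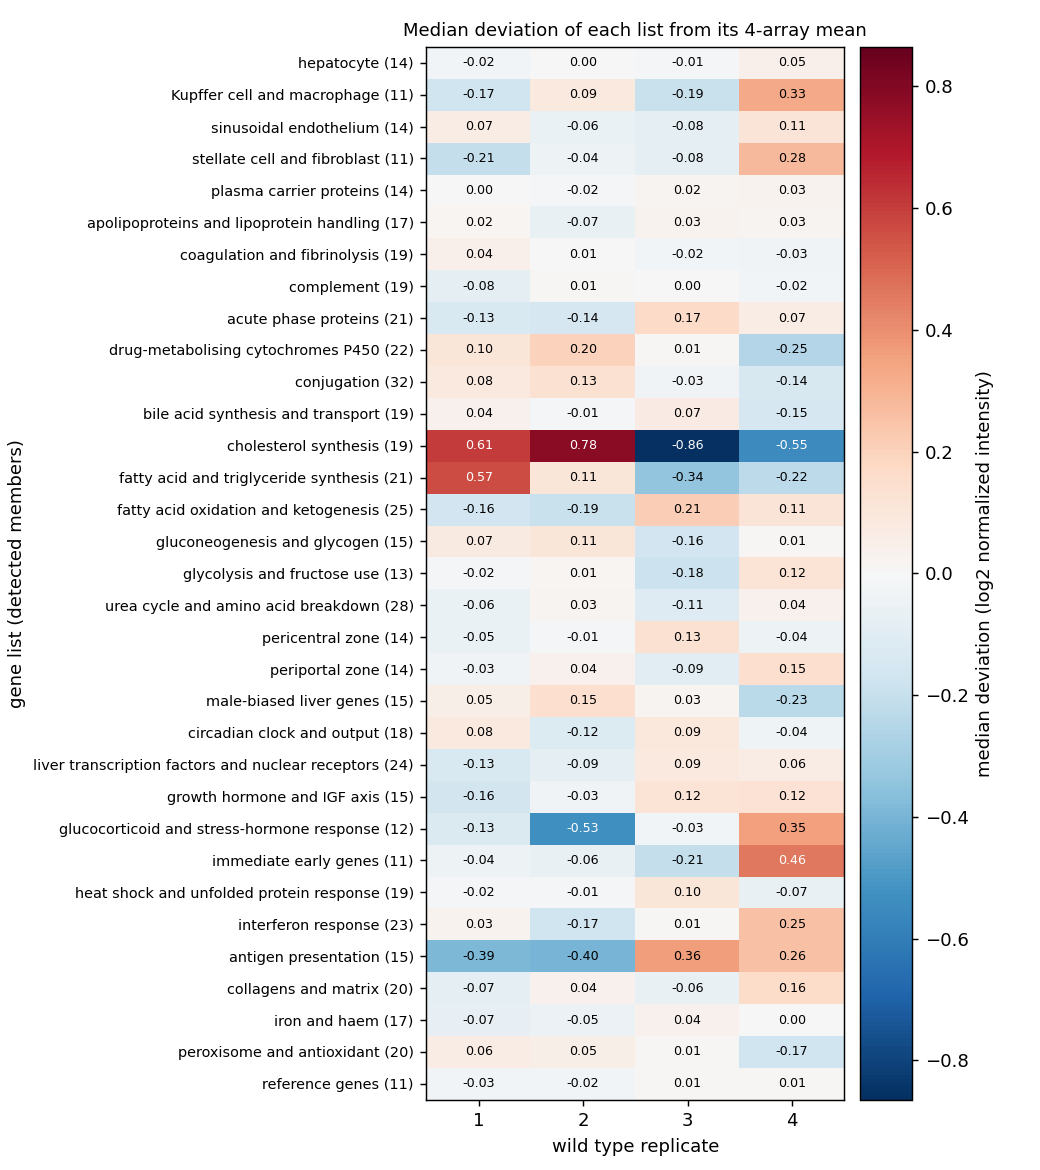
Median deviation, on the log2 scale, of the detected members of each gene list from their mean over the 4 arrays, for lists with at least 9 detected members. Columns are the 4 wild type replicates and the number after each name counts the detected members. Cholesterol synthesis runs from 0.78 on replicate 2 to -0.86 on replicate 3, and antigen presentation runs the opposite way, from -0.40 to 0.36.

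The signs of the larger deviations did not depend on the processing: over 47 lists and 5 other settings, 0 deviations over 0.1 changed sign. Smaller ones could turn, as for the interferon list on replicate 1, at 0.03 as reported and -0.08 with median scaling. The size of the deviations did depend on the processing, and for cholesterol synthesis without background correction they were 0.54, 0.56, -0.70 and -0.37. The labels give no chip, cage, litter or hour for the mice, so whether replicates 1 and 2 shared any of these was not tested.

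A few growth hormone feedback genes were set apart on replicate 1. Of 18 genes of the growth hormone and IGF axis 15 were detected, and 8 had an SD over 0.5, against 7.03% of all detected genes. Of the 15, 7 were lowest on replicate 1, against 25.4% of all detected genes. The median deviation was -0.16, -0.03, 0.12 and 0.12. Socs2 and Cish, which switch off the growth hormone receptor's signal and are induced by it, read 309.6, 1000.1, 1045 and 1501 and 409, 1047, 1563 and 1709.7 units, lowest on replicate 1. Bcl6, a repressor that growth hormone is known to lower, read 1306, 647, 539.9 and 773 units and was highest there. Igf1, the main growth hormone target in liver, was level at 10148, 11157, 10059 and 10072 units. Rgs16, a regulator of G protein signalling, was also highest on replicate 1, at 1656, 285, 203 and 529 units.

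Replicate 2 was set apart by a few genes. Tpmt, which inactivates thiopurine drugs, read 185, 1766, 181 and 172 units. Its SD of 2.52, the largest of all detected genes, fell to 0.48 without replicate 2, and on the other 3 arrays the probe lay just above background. The neurotrophin receptor Ntrk2 was also highest on replicate 2, at 276, 562, 168 and 198 units, and the lipid droplet protein Plin4 was lowest there, at 345, 186, 687 and 1280.0.

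Replicate 4 differed most: 315 detected probes lay over 2-fold from the mean of the other arrays, against 127 to 162 on replicates 1 to 3. The genes concerned were not muscle genes alone. The lipoprotein lipase Lpl, which muscle and fat express strongly, read 1137, 1018, 779 and 7297 units. Hal, which starts histidine breakdown in liver and skin, read 1814, 2179.5, 1838 and 8528 units, the steroid hydroxylase Cyp17a1 1145, 1186, 1442 and 4536 and the growth arrest gene Gadd45g 1094, 1357, 2266 and 7017. Each was highest on replicate 4. Other genes were low there. The male-specific steroid enzyme Hsd3b5 read 6708, 9432, 3894 and 1735 units, the odorant-binding protein Obp2a 2442, 3441, 2279 and 555, the elongase Elovl3 1867, 1344, 1289 and 834 and the urinary protein Mup20 8757, 10919, 10939 and 5854. The median deviation of the 15 detected male-biased genes was 0.05, 0.15, 0.03 and -0.23, and 9 of the 15 were lowest on replicate 4, against 30.3% of all detected genes. Muscle-linked members of the most variable genes were Tnnt1 at 178, 177, 200.1 and 855 units, Eno3 at 205, 201, 202 and 1027, Des at 202, 209.5, 215 and 1096 and Cox7a1 at 306, 295, 240.2 and 1655. Fxyd6, not chosen as a muscle marker, was also highest on replicate 4, at 173, 162, 160.0 and 695. Without replicate 4 the SDs of these genes, 1.54 to 1.70, were 0.11, 0.21, 0.093, 0.51 and 0.39 in that order. The part of muscle RNA in the other differences of replicate 4 was not tested.

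**Figure D5:**
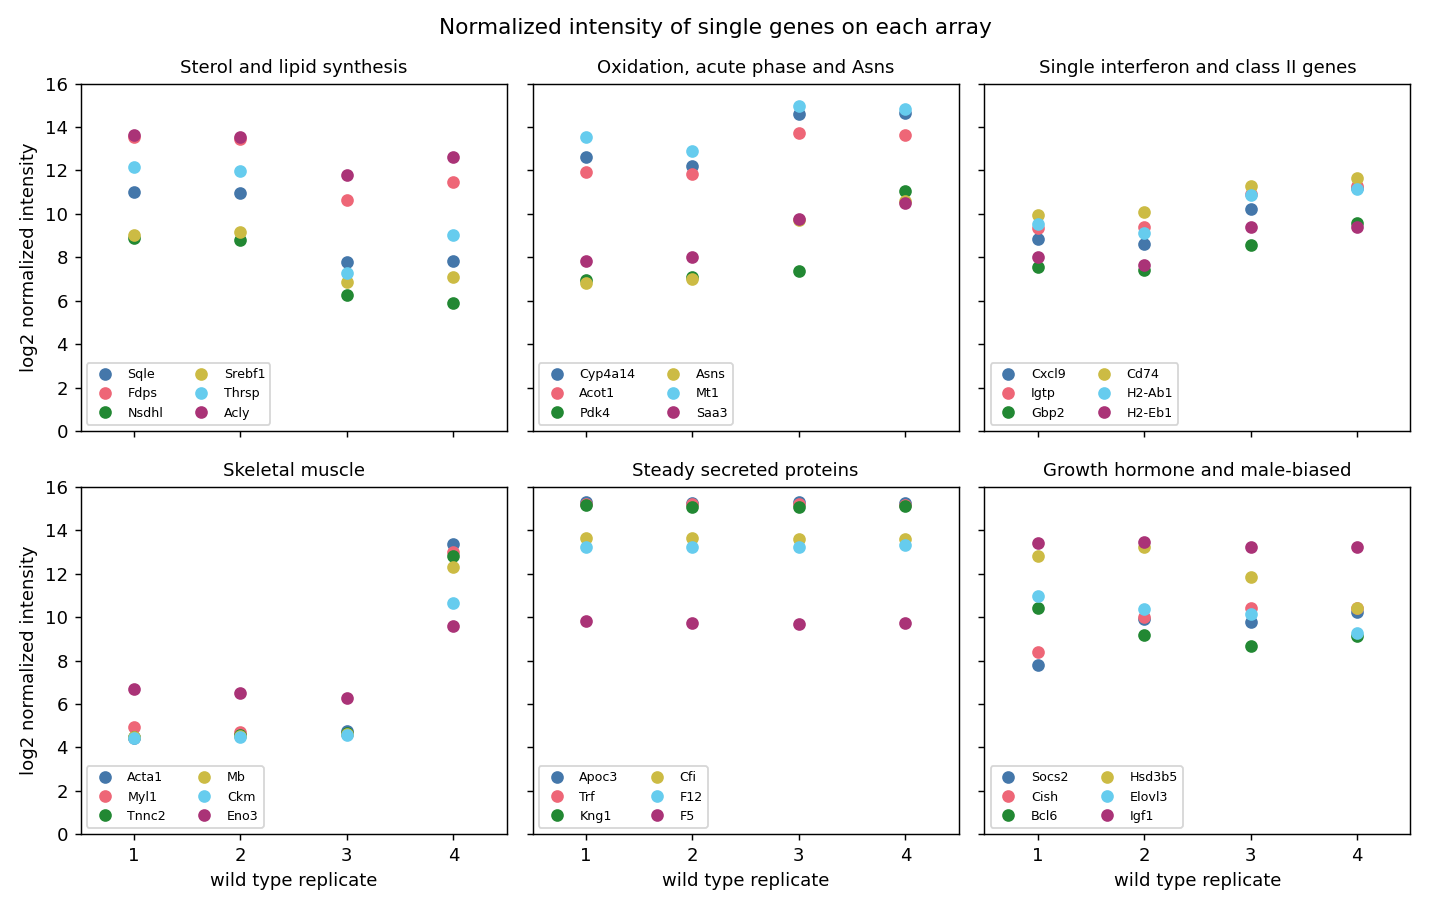
Normalized log2 intensity of 36 single genes on each of the 4 wild type arrays, in 6 groups. Each point is 1 gene on 1 array. Sterol and lipid genes are higher on replicates 1 and 2, the oxidation, acute phase, interferon and class II genes drawn here, chosen with their values known, higher on 3 and 4 except Pdk4, which is high on replicate 4, muscle genes higher on replicate 4 alone, and secreted proteins lie level on all 4.

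Hormone-responsive and immediate early genes varied in no single order. Of 15 glucocorticoid and stress-hormone genes 12 were detected, and 8 had an SD over 0.5, against 7.03% of all detected genes. The median deviation was -0.13, -0.53, -0.03 and 0.35. The cell cycle inhibitor Cdkn1a, on this list, read 469.8, 339, 1126 and 1131 units. Of 20 immediate early genes 11 were detected, with Dusp1 at 2279, 1989, 1236 and 4283 units and Egr1, which handling and injury are known to induce, at 1137, 512, 386 and 1774. Egr1 was high on replicates 1 and 4, an order unlike that of the lipid or class II genes.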

How the data were processed

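The labels' protocols give total RNA from a column kit, a Bioanalyser quality check and biotin labelling by Illumina's standard procedure. Each of the 25697 probes has 2 deposited values on each array: per the file headers, a signal, here named intensity, and a detection p-value. The intensity is on a linear scale with no background subtracted and no scaling between arrays, as its values show. The sources used here do not give the origin of the deposited detection p-value, whose smallest step is 0.00125. The authors also deposited an intensity normalized between arrays, by a method the sources used here do not name. It keeps the rank order of probes on every array and leaves wild type replicate 4 as it was. The tools listed, per the submitters' processing notes, are R 2.15.0 and lumi 2.10.0, with no role.

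Detection and rank were taken from the intensity as deposited. For the spread, limma 3.58.1 in R 4.3.3 applied neqc to the 4 wild type arrays alone: an offset of 16 after background correction from the detection p-values, then quantile normalization on the log2 scale. The spread estimate was also run on simulated data with normal background noise and SDs set without regard to brightness. That setting is simpler than these arrays and does not check how the spread depends on the background correction. No test between groups was run, so there are no adjusted p-values. Columns of the knockout arrays were used in 1 alternative setting only, normalization of all 8 arrays together. Lists, ranks and plots were made in Python 3.11.15 with matplotlib 3.10.9.

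The platform table gave 1 gene for 23978 probes, none for 1719 and several for 0. Of these 23978 probes, 23962 matched the RefSeq table of assembly GRCm38.p6 by Entrez number, with 0 symbols changed. In all, 54 gene lists and a set of name-based families were used, and genes on a list without a probe were not analysed here. The members and the lists were chosen with earlier results of these data known. Named genes are the 24 brightest, the 16 with the largest and the 8 with the smallest spread, those farthest from the other arrays on each array, and from each list up to 4 of the brightest, 3 of the most variable and 4 undetected members. Outside this rule, Hnf4a, Acly, Cdkn1a, Scap, H2-Eb1, Ifit3, Isg15, F12, F5, Adipoq and Lep were chosen after their values were seen, and F2 and Msmo1 for their promoter windows. Alternatives were other detection thresholds, no background correction, an offset of 50, median scaling, the authors' normalized table, no filter, a mean over the probes of a gene, and leaving out each array.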

Additional observations from a re-analysis of the deposited data

Results flagged for a closer look

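Among the named genes, the gene lists and the array values, 27 of 256 had 1 array set apart from the other 3 by a gap that was large against the whole range (Dixon's criterion for 4 values). Chance alone gives about 1 in 20 such values, but many of the named genes were chosen for a wide spread or for 1 far array, so their count is no test against that share. Over all 10078 detected probes, 600 met the criterion (5.954%), with replicate 1 the array set apart for 81, replicate 2 for 66, replicate 3 for 145 and replicate 4 for 308. Values below are log2 intensities after normalization unless stated.

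Replicate 4 held most of the large gaps. The skeletal muscle genes Acta1, Myl1 and Tnnc2 were at 13.35, 13.0 and 12.79 there, against 4.42 to 4.74, 4.6 to 4.92 and 4.46 to 4.65 on the other arrays. The myosin light chains Myl2 and Myl3 were at 10.03 and 9.46, against at most 4.5 and 4.64. Tnnt1, a slow troponin, was at 9.3, Des, the muscle intermediate filament, at 9.7 and Eno3, the muscle enolase, at 9.6, against at most 6.23, 6.65 and 6.69. The median deviation of the skeletal muscle list from the probe means was 1.3 on replicate 4 and -0.6 to -0.31 on the others, over only Eno3 and Actn3, since the 12 members detected on 1 to 3 arrays do not enter it. Replicate 4 also had 11910 probes detected, against 11423 to 11451.

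Genes off the muscle list were set apart on replicate 4 as well. Pdk4, a kinase that restrains pyruvate oxidation and that muscle also expresses strongly, was at 11.07 against 6.95 to 7.37, and Cyp17a1, a steroid hydroxylase, at 11.93 against 10.17 to 10.31. The 3 detected female-biased liver genes had a median deviation of 0.84 on replicate 4 and -0.48 to -0.35 elsewhere, though only Cyp17a1, given above, was highest there, and the major urinary proteins -0.27 against 0.07 to 0.12. Muscle signal was high on the same array, and its part in these values was not tested. Itih4 was at 14.58 against 14.45 to 14.47, Aldh5a1 at 11.47 against 11.44, and Trf at 15.17 against 15.19, gaps of little size. Fgfr1op2 was lower, at 6.42 against 8.68 to 8.83.

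On the other arrays most gaps were small or lay near background. Rmdn3 was at 7.66 on replicate 2 against 9.69 to 9.97. S100a8, a neutrophil protein, was at 7.56 on replicate 1 against 6.23 to 6.39. Fasn, fatty acid synthase, was at 4.57 on replicate 3, where it was not detected, against 5.46 to 5.54. Cyp1a1 at 4.54 on replicate 1 and Tat at 5.09 on replicate 2 were set apart without being detected on any array. Hpx was at 15.0002 on replicate 2 against 15.14 to 15.16, and the apolipoprotein list had a median deviation of -0.07 there against 0.02 to 0.03. Adk was at 14.47 and Ambp at 15.03 on replicate 3, against 14.44 and 14.99.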

How the results depend on the processing

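The counts of detected probes and genes stayed within 1.5 times of the reported 10078 and 7222 under each detection rule tried: 9029 probes and 6551 genes at a detection p-value under 0.01, and 10886, 11812 and 13442 probes on at least 3, 2 and 1 arrays. Leaving out each array in turn gave 10240 to 10303 probes and 7300 to 7368 genes. The spread depended on the background correction. The typical deviation of a detected probe from its mean, 0.15 on the log2 scale, was 0.095 without background correction, 0.098 in the authors' normalized table and 0.11 with no filter on detection, and 0.12 to 0.15 on leaving out each array, lowest without replicate 4. The number of probes with an SD over 0.5, 764 as reported, was 279 without background correction, 444 with an offset of 50, 282 in the authors' table and 1198 with no filter, and 563 to 1032 on leaving out each array. The cause of these differences was not tested. Normalizing all 8 arrays together gave 770 and median scaling 846. Of the 100 brightest genes, 86 to 100 were shared with the other rankings and 95 to 98 on leaving out each array. Of the 16 most variable genes, the SD moved over 1.5 times for 4 without background correction, 4 in the authors' table, 6 without replicate 4, 2 without replicate 2, 1 without replicate 1 and 0 without replicate 3. Averaging over the probes of a gene moved the median rank percentile of 18 of 54 lists by more than its SD between arrays, by at most 11.45 points. No paired analysis was possible because only 1 group was described and no test was run. With 4 arrays, and signals that flatten near background, differences among dim probes are poorly resolved.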

Other observations

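Several wide differences lay outside the lists. Aqp8, a water channel of the canalicular membrane, read 3228, 2667, 557 and 747 units, high on replicates 1 and 2. Nxpe2 read 455, 419.8, 403 and 175 units and Fgfr1op2 506, 492, 594 and 228, both lowest on replicate 4, and Rmdn3, a protein at contacts of mitochondria and endoplasmic reticulum, read 999, 303, 994 and 1103, lowest on replicate 2. Xlr4a, an X-linked gene of a lymphocyte-regulated family, read 809.8, 214, 242 and 375 units and Defa31, an alpha-defensin, 308, 152, 175 and 175, both highest on replicate 1. Gsta1, a glutathione transferase that may share signal with its relatives, read 397, 407, 206 and 768 units, lowest on replicate 3 and highest on replicate 4. By name, 147 of 326 solute carrier genes (45.1%) and 117 of 280 Zfp zinc finger genes (41.8%) were detected on all 4 arrays. Both shares lie near the 43.4% of all genes. Detection on all 4 arrays was also seen for 26 of 46 ABC transporters (56.5%) and 18 of 49 serpins (36.7%).

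By chromosome, the share of genes detected on all 4 arrays ran from 20% on Y (3 of 15 genes) and 32.7% on X (199 of 609) to 51.5% on chromosome 8 (414 of 804), against 43.4% of all genes by the brightest probe. Of 16492 protein-coding genes 7182 were detected (43.5%), and of 21 long non-coding RNA genes 2.

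Probes of a gene often disagreed. Of 4777 genes with several probes, 1163 had all probes detected on all 4 arrays, 1975 had none and 1639 had some. In 1171 genes, 1 probe was detected on all 4 arrays and another on 0. The membrane protein Itm2b had probes at 25927 ± 2014 and 132 ± 3.68 units, B2m, the class I light chain, at 23636 ± 2040 and 129 ± 4.72, and the ribosomal protein Rpl37 at 20249 ± 1263 and 131 ± 13.6 (SD, n = 4 each). Among the 1719 probes without a gene name, 585 were detected on all 4 arrays (34.0%), and the brightest, ILMN_2588052 and ILMN_1377920, averaged 30329 ± 859 and 29818 ± 625 units and ranked 23 and 25 of all probes.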
